A study of Mus musculus with 577 samples.

Results

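Granulosa cells that border the oocyte and granulosa cells that lie away from it were compared in 71 single-cell libraries of the mouse ovary, out of the 577 samples of the series. The members were all granulosa libraries of the experiment that ran 2 variants of Smart-seq2, a full-length cDNA amplification, side by side, and each was placed by its label as Neighboring or Non-neighboring. LCM-seq, the published variant with Triton X-100 lysis, gave 17 neighboring and 20 non-neighboring cells. DRaqL-Smart-seq2, in which the cells were lysed with the strong detergent sodium deoxycholate that was then quenched, gave 15 neighboring and 19 non-neighboring cells. All cells were cut by laser capture microdissection from alcohol-fixed frozen ovary sections of 15 μm, stained with cresyl violet, of 8-week-old female mice without a stated genetic change or drug treatment. The strain is not given in the sources used here. The study's methods place both variants on sections of 1 ovary and the follicles between the secondary and the early antral stage, and no label names an animal or a follicle.

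An ovarian follicle holds 1 oocyte inside layers of granulosa cells. The innermost of these cells send transzonal projections through the zona pellucida, the oocyte's glycoprotein coat, and are joined to the oocyte by gap junctions. The oocyte secretes GDF9 and BMP15, growth factors of the TGF-β family that act on the surrounding cells. As an antral follicle grows, the cells around the oocyte become cumulus cells, which feed the oocyte with products of glycolysis, and the cells along the follicle wall become mural cells, which turn to steroid and inhibin synthesis.

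The stretches before the start sites of 5 genes are shown because these genes carry both sides of the comparison. Zp3, Bmp15 and Oog3 encode oocyte products that were read more in neighboring cells, and Hsd3b1 and Inhba were the genes most strongly higher in non-neighboring cells. Each line holds 250 bases 5′ to 3′ up to the RefSeq start site, from GRCm38.p6. They lie at chr5:135979855-135980104 on the plus strand, chrX:6320725-6320974 on the minus strand, chr4:144162652-144162901 on the minus strand, chr3:98859795-98860044 on the minus strand and chr13:16011601-16011850 on the plus strand.
Zp3: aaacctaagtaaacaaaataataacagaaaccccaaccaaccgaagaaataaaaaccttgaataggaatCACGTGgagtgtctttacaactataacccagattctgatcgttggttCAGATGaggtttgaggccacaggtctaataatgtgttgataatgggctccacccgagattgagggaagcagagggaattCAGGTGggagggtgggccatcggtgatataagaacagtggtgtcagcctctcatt
Bmp15: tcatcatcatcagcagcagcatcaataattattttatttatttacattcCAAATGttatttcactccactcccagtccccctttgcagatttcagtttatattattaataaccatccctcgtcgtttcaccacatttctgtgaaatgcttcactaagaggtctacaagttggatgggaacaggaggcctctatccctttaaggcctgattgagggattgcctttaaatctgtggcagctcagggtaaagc
Oog3: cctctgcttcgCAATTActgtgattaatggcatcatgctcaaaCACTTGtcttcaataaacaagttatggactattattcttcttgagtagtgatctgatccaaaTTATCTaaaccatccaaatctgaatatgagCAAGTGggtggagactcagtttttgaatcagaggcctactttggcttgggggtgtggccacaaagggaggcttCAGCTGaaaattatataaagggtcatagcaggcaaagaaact
Hsd3b1: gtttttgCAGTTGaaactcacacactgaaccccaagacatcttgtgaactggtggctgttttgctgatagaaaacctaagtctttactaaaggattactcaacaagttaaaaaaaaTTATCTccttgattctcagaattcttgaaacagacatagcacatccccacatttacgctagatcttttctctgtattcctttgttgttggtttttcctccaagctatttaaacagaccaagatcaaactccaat
Inhba: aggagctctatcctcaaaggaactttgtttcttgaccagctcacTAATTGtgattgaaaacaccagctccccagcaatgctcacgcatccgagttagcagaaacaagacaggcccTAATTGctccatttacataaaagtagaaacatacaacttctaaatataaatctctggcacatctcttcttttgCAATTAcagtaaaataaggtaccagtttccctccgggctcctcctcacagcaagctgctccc
Capitals mark 4 motifs searched on both strands. TAATTG is a core that homeodomain factors such as the oocyte factor NOBOX can bind, CANNTG is the E-box of basic helix-loop-helix factors such as FIGLA, AAGGTCA is the core of the site of NR5A1 and NR5A2, and AGATAA is a GATA site. The E-box was found 3 times before Zp3, 3 times before Oog3, 1 time before Bmp15 and 1 time before Hsd3b1, and it was present in 66.2% of the 32851 windows of the same length. TAATTG was found 3 times before Inhba and 1 time before Oog3, against 7.17% of all windows. AGATAA was found 1 time each before Oog3 and Hsd3b1, against 9.99%, and AAGGTCA was found in none of the 5 windows, against 4.08%. A match only describes these letters.

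Reads on protein-coding genes ran from 71425 to 802284 per LCM-seq cell and from 108346 to 2141617 per DRaqL-Smart-seq2 cell, and levels are reads per 1000000 of these reads (RPM). Inha, the inhibin alpha subunit that defines granulosa cells, was read in every cell, at no less than 1172 RPM. Detected protein-coding genes averaged 9007 ± 1033 (SD) in neighboring and 7929 ± 1152 in non-neighboring LCM-seq cells, and 9830 ± 966 against 9530 ± 1979 with DRaqL-Smart-seq2. With each cell thinned to 100000 reads, which left out 1 non-neighboring LCM-seq cell, these values became 7198 ± 953 against 6555 ± 907 and 7526 ± 619 against 7290 ± 1133. The median number of gene reads per spike-in read, a measure of RNA per cell, was 2.63 against 2.41 with LCM-seq and 5.43 against 5.43 with DRaqL-Smart-seq2. The cells were pooled by at most 10 into 8 library pools, 4 for each protocol. In-line indexes 1 to 5 always marked neighboring and 6 to 10 always marked non-neighboring cells, so the index and the position cannot be told apart in these libraries. With no animal named, each group of cells counts as 1 sample. The values below therefore carry the SD over cells and, for summed reads, an exact Poisson interval for counting error only, and no p-value.

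Transcripts of the oocyte were the leading difference. Differences (neighboring minus non-neighboring) are of mean log2(RPM + 1), and a gene was kept when this mean reached 4 in at least 1 of the 4 groups, which 6188 of 22060 protein-coding genes did. Of 14 oocyte genes, 14 had the higher mean in neighboring cells in both protocols, as had 6420 of the 22060 protein-coding genes. The 11 of them that were kept were each more than 2-fold higher in both, against 6.5% of all kept genes, and 0 were lower. These genes passed the filter through the neighboring cells, so they had to differ, and over all 14 the median of the combined difference (the mean of both protocols) was 3.34. The summed level of the 14 genes ran from 66.8 to 11228 RPM in neighboring LCM-seq cells, with a median of 1545, and from 0 to 1200 with a median of 29.8 in non-neighboring ones. With DRaqL-Smart-seq2 it ran from 8.66 to 4976 with a median of 714, and from 1.91 to 3350 with a median of 20.8. On the log2 scale the means were 10.48 ± 2.06 against 4.98 ± 2.63 with LCM-seq and 9.27 ± 2.24 against 5.43 ± 3.33 with DRaqL-Smart-seq2.

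The groups overlapped in both protocols. Of the neighboring cells, 11 of 17 with LCM-seq and 3 of 15 with DRaqL-Smart-seq2 were above the highest non-neighboring cell, and none of the 17 was below the median of the non-neighboring cells. Of the non-neighboring cells, 14 of 20 and 7 of 19 were below the lowest neighboring cell, and the others lay within the neighboring range. The highest non-neighboring DRaqL-Smart-seq2 cells were at 3350 RPM in pool 7 and 816 in pool 8, against 213 in pool 5 and 75.99 in pool 6. A neighboring cell held reads on a mean of 11.3 of the 14 genes with LCM-seq and 10.1 with DRaqL-Smart-seq2, and a non-neighboring cell on 3.35 and 5.95. At equal depth these became 10.1 and 8.60 against 2.11 and 3.63. The sum of the 14 genes did not follow depth closely within groups, with a Spearman coefficient against protein-coding reads between -0.23 and 0.18 in the 4 groups of 15 to 20 cells, which share pools and chemistry.

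**Figure D1:**
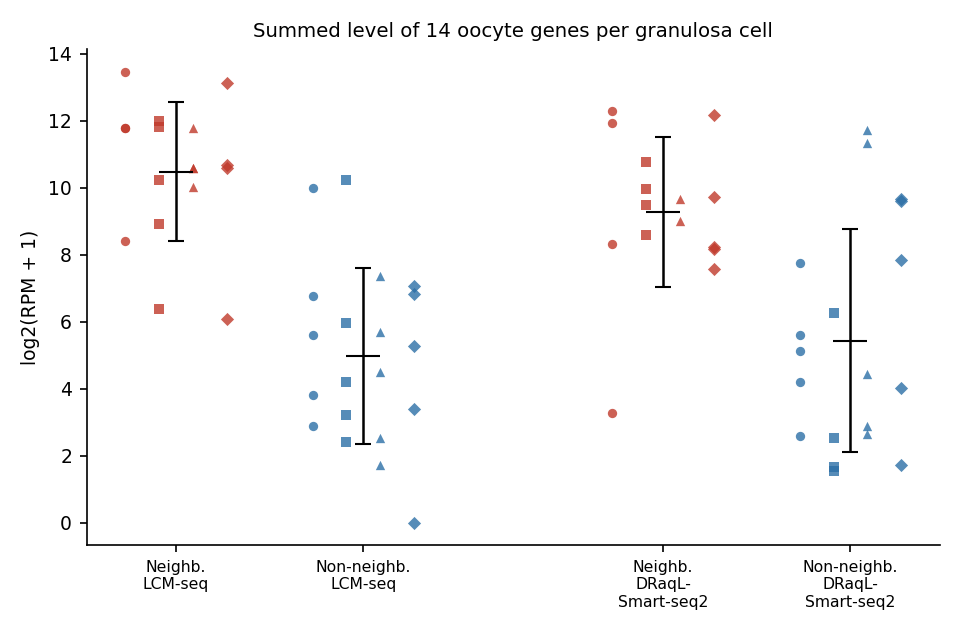
Summed level of 14 oocyte genes in each granulosa cell, on the y axis as log2(RPM + 1). Each point is 1 cell, marker shapes and columns within a group are the 4 library pools of the protocol, and black bars are the mean and SD over cells. Means were 10.48 and 4.98 with LCM-seq and 9.27 and 5.43 with DRaqL-Smart-seq2, and 14 of 20 and 7 of 19 non-neighboring cells lie below the lowest neighboring cell.

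Of the 14 genes, Gdf9 and Bmp15 encode the secreted factors. Gdf9, on chr11:53431023-53437904, was read in 17 of 17 neighboring LCM-seq cells, from 2.20 to 2531 RPM with a median of 353, and in 6 of 20 non-neighboring cells, with a highest value of 217. With DRaqL-Smart-seq2 it was read in 12 of 15 neighboring cells, with a median of 88.9 and a highest value of 1182, and in 14 of 19 non-neighboring cells, with a median of 1.60 and a highest value of 615. Gdf9 was thus high in most neighboring cells, and in the second protocol low reads were also common away from the oocyte. Its differences were 5.95 and 2.62. Bmp15, on chrX:6314107-6320721, had medians of 59.98 against 0 RPM and 2.82 against 0, with differences of 4.70 and 2.00. A single non-neighboring DRaqL-Smart-seq2 cell reached 821 RPM, above the highest neighboring cell at 365.

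Genes of the egg coat, the egg surface and the oocyte nucleus had the same direction. Zp3, the sperm-binding coat protein, had medians of 70.4 against 0 RPM with LCM-seq and 9.41 against 0 with DRaqL-Smart-seq2, and differences of 4.54 and 2.14. Zp2, another coat protein, was below the filter, with a read in 11 of 17 against 2 of 20 cells and in 7 of 15 against 5 of 19. Izumo1r, the egg receptor for sperm, was also below it, with a read in 9 of 17 against 0 of 20 LCM-seq cells. H1foo, the oocyte linker histone, had medians of 272 against 0 and 159 against 1.09 RPM. Oosp1, a secreted oocyte protein, had medians of 114.1 against 0 and 28.2 against 0, with differences of 5.72 and 2.04. Oog3, a leucine-rich-repeat gene of the oocyte that has close copies, had differences of 3.71 and 2.49. Reads of Obox1 and Obox2, homeobox genes of nearly identical sequence on chromosome 7, cannot be assigned to 1 copy with certainty, and their differences were 5.38 and 5.43 with LCM-seq and 3.18 and 3.11 with DRaqL-Smart-seq2. Obox3 differed least, by 0.63 and 0.39, and at a mean of 7.37 RPM it was low in oocytes too.

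Ooep, a component of the subcortical complex that the early embryo needs, had the largest combined difference of all kept genes. It lies on chr9:78376109-78378725. Neighboring LCM-seq cells ran from 0 to 956 RPM with a median of 221, and non-neighboring ones from 0 to 62.9 with a median of 0. Neighboring DRaqL-Smart-seq2 cells ran from 0 to 814 with a median of 77.4, and non-neighboring ones from 0 to 531 with a median of 0. The summed reads gave 239 RPM (229 to 250) against 3.40 (2.26 to 4.91) and 213 RPM (205 to 221) against 26.2 (23.9 to 28.8). Its differences were 6.32 and 3.87, and 13 of 17 and 3 of 15 neighboring cells lay above every non-neighboring cell.

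Bcl2l10, an anti-apoptotic gene of the oocyte on chr9:75347758-75351632, was next, with differences of 5.54 and 4.49. Its medians were 220 against 0 RPM and 92.6 against 1.01, and the highest non-neighboring cells reached 286 and 297. Npm2, the histone chaperone of the oocyte nucleus, followed with 6.09 and 3.85. Omt2b and Omt2a are neighbors of Ooep on chromosome 9 and close copies of each other, so that their counts may be shared, and Omt2b had differences of 5.33 and 4.31. The other genes among the 10 most strongly higher in neighboring cells were Gm15698, Gm813, E330017A01Rik, H1foo and Fbxw14, of which Gm813 and E330017A01Rik are copies side by side on chromosome 16 and Fbxw14 belongs to a family of close copies. In the 8 library pools taken singly, Ooep was higher in neighboring cells by 2.40 to 7.54 and Bcl2l10 by 2.79 to 6.76. H1foo and E330017A01Rik were higher in 7 of 8 pools, with -0.27 and -0.25 in pool 7, which has 2 neighboring cells.

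Among 34 further oocyte genes, 32 had the higher mean in neighboring cells in both protocols, as had 6420 of the 22060 protein-coding genes. Of the 20 kept ones, 18 were past 2-fold, against 6.5% of all kept genes. Here too, a gene that passed the filter through the neighboring cells alone had to differ. Padi6, of the oocyte's cytoplasmic lattices, differed by 4.63 and 2.33, Mos, the kinase of meiotic arrest, by 4.60 and 2.70, and Dppa3, a maternal factor that guards DNA methylation, by 4.41 and 3.38. Ddx4, a germ cell RNA helicase, was an exception with 0.11 and -0.04. The oocyte transcription factors were low in these cells, Nobox with differences of 2.27 and 0.71 and Figla with 0.24 and 0.28.

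Against oocytes, the amounts in neighboring cells were small for many of the 14 genes but not for all. The 8 oocytes laser-captured in another experiment of the series, called here the same-mouse experiment because it took oocytes and granulosa cells from the sections of 1 mouse with DRaqL-Smart-seq2, held 14665 to 29654 RPM of the 14 genes, with a median of 26813. The mean of neighboring cells, less that of non-neighboring cells, came to a median over the 14 genes of 9.50% of the oocyte mean with LCM-seq, with a range of 2.90% to 98.8%, and of 4.01% with DRaqL-Smart-seq2, with a range of 0.896% to 25.8%. The highest share with LCM-seq belonged to Obox3, near the floor in oocytes, followed by Obox2 at 50.7%, Obox1 at 46.6% and Izumo1r at 45.7%. Zp2 had the lowest, at 2.90%. The libraries of these experiments were made separately, so the shares are set across tables.

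The level in oocytes also divided the whole list of genes. Past 2-fold in both protocols were 402 kept genes that were higher in neighboring cells and 86 that were lower, or 6.5% and 1.39% of those kept. These shares moved with the scale, to 11.49% and 2.41% with a pseudocount of 0.1 RPM and to 2.08% and 0.436% with 10 RPM. The ratio of summed RPM gave 2.63% higher in neighboring cells, and thinning to equal depth gave 2.21% lower. Of the 402, 192 (47.8%) were at least 8-fold higher in the same-mouse oocytes than in non-neighboring cells of that experiment, against 20.1% of all kept genes, and 72 (17.9%) were at least 2-fold lower in oocytes, against 18.1% of all kept genes. Of the 86, 51 (59.3%) were at least 2-fold lower in oocytes. Within 1 protocol, 20.4% of kept genes were past 2-fold higher and 7.81% lower in neighboring cells with LCM-seq, and 16% and 6.27% with DRaqL-Smart-seq2. The median of all kept genes was 0.21 and 0.17, and list medians are read against these. Over the kept genes, the differences of the 2 protocols had a Pearson coefficient of 0.39, across genes that are not independent.

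**Figure D2:**
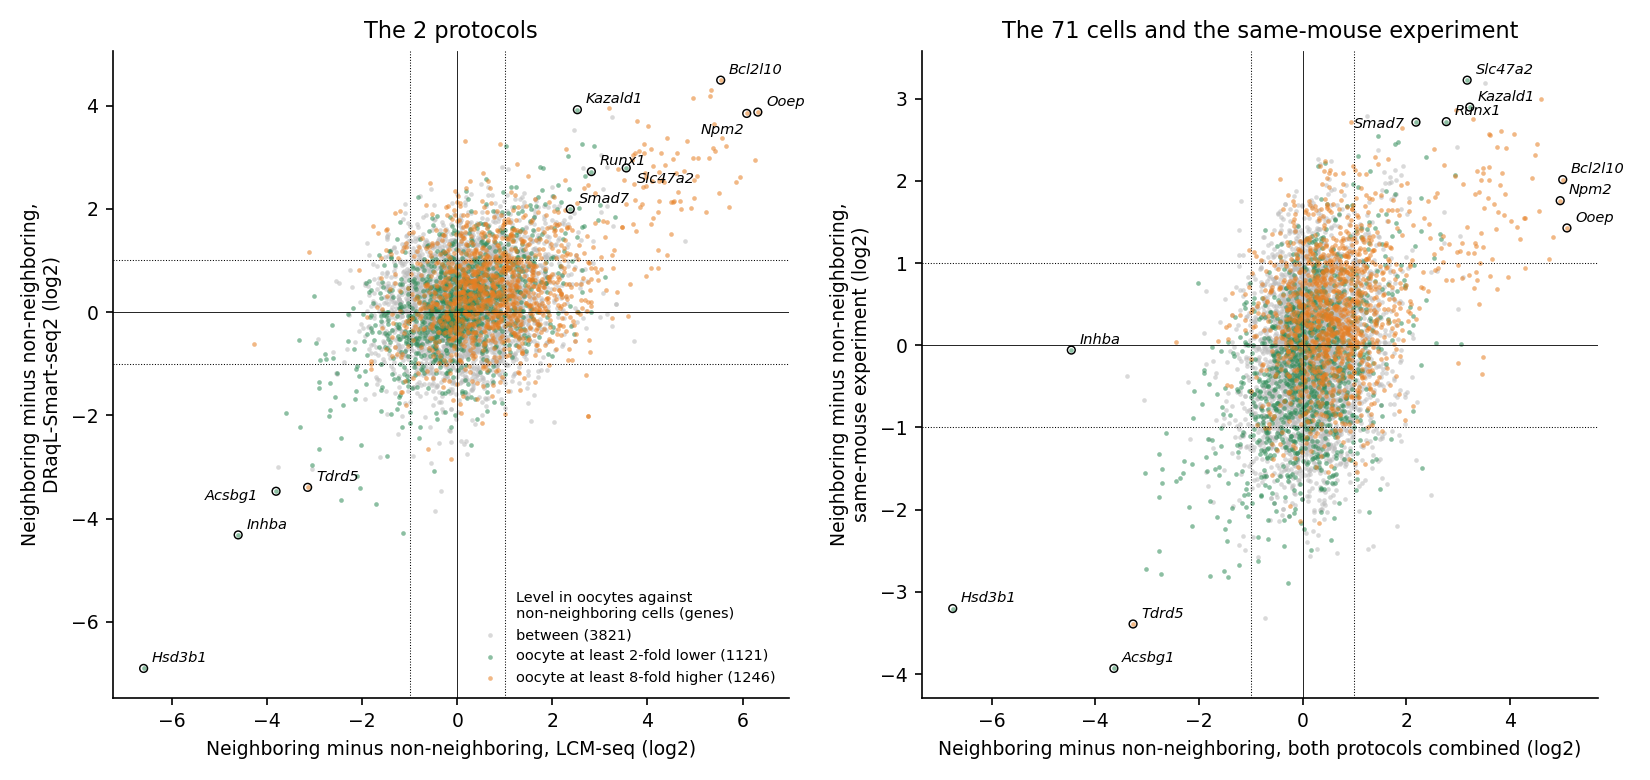
Differences between neighboring and non-neighboring cells for the 6188 kept genes, as log2 values on both axes. The left panel sets DRaqL-Smart-seq2 against LCM-seq, the right panel sets the same-mouse experiment against the combined difference, dotted lines mark 2-fold, and colors give the level in same-mouse oocytes. Ooep, Bcl2l10 and Npm2 lie at the upper right, Hsd3b1 and Acsbg1 at the lower left of both panels, and Inhba is near 0 on the y axis of the right panel.

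Hsd3b1 was the gene most strongly higher away from the oocyte. It encodes a 3β-hydroxysteroid dehydrogenase that makes progesterone from pregnenolone, it lies on chr3:98852194-98859794, and it has close copies beside it that may share reads. In LCM-seq, neighboring cells ran from 0 to 267 RPM with a median of 9.14, and non-neighboring cells from 2.41 to 6235 with a median of 1053. In DRaqL-Smart-seq2, neighboring cells ran from 0 to 156 with a median of 2.97, and non-neighboring cells from 148 to 2715 with a median of 801. The groups were nearly apart, since 17 of 20 and 18 of 19 non-neighboring cells were above the highest neighboring cell. The mean log2 values were 3.27 ± 2.84 against 9.87 ± 2.48 and 2.67 ± 2.57 against 9.57 ± 1.06, with differences of -6.59 and -6.90. Summed reads gave 48.7 RPM (43.996 to 53.8) against 1805 (1776 to 1834), and 23.1 (20.5 to 25.9) against 942 (927 to 956). In all 8 pools it was lower in neighboring cells, by 1.33 to 9.45 on the log2 scale.

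Inhba, the activin and inhibin beta-A subunit on chr13:16011851-16031621, was next, with differences of -4.61 and -4.32. Its LCM-seq medians were 1.99 RPM in neighboring and 359 in non-neighboring cells, with highest values of 479 and 7523. The DRaqL-Smart-seq2 medians were 0 and 77.98, with highest values of 62.4 and 2262. It varied widely between pools. The median of non-neighboring cells was 5282 RPM in pool 4, 1011 in pool 1, 134 in pool 2 and 0 in pool 3, and with DRaqL-Smart-seq2 it was 0 in pool 7 and between 77.98 and 211 in the others. The pool differences ran from -8.91 to 0.03. Hsd3b1 and Inhba went together among non-neighboring cells, with a Spearman coefficient of 0.93 over 20 LCM-seq cells and 0.58 over 19 DRaqL-Smart-seq2 cells, and of 0.11 and -0.23 over the 17 and 15 neighboring cells. Cells of 1 pool share a library, so these coefficients are descriptions.

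Acsbg1, an acyl-CoA synthetase on chr9:54604877-54661870, had medians of 6.21 against 174 RPM and 16.1 against 93.6, and differences of -3.81 and -3.47, with the lower mean in neighboring cells in all 8 pools. Tdrd5, a germ cell gene of the piRNA pathway on chr1:156255296-156303664, had medians of 5.72 against 140 and 7.22 against 68.8, and differences of -3.15 and -3.39, again in all 8 pools. It went against the other germ cell genes, since it was lower beside the oocyte although the same-mouse oocytes held it at a mean log2 of 8.20, 3.30 above non-neighboring cells of that experiment.

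The remaining genes among the 10 most strongly higher away from the oocyte had differences between -3.77 and -1.95. Clu, the secreted chaperone clusterin, had medians of 107.2 against 375 RPM and 48.7 against 258. Lgals1, the lectin galectin-1, had 0 against 82.6 and 1.88 against 56.5. Anxa3, a calcium-dependent membrane-binding annexin, had 0 against 27.8 and 0 against 28.7. Mro, Emp3 and Tmem86a completed the list. Clu, Mro, Emp3 and Tmem86a were lower in neighboring cells in all 8 pools, and Lgals1 and Anxa3 in 7 of 8, with 0.37 and 0.12 in pool 7.

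Of 10 genes listed as typical of mural cells, 8 had the lower mean in neighboring cells in both protocols and 0 the higher. Of all 22060 protein-coding genes, 3733 had the lower mean in both. Only 3 of the 10 were kept and 2 of these, Hsd3b1 and Inhba, were past 2-fold, against 1.39% of all kept genes. These 2 passed the filter through the non-neighboring cells alone, so they had to differ. Over all 10 the median of the combined difference was -1.10. Cyp11a1, the side-chain cleavage enzyme that starts steroid synthesis, was read in 3 of 17 against 10 of 20 cells and in 2 of 15 against 9 of 19. Lhcgr, the luteinizing hormone receptor, was read in 0 of 17 against 6 of 20 and in 1 of 15 against 7 of 19. Cyp19a1, the aromatase, was read in 1 of 17 against 12 of 20 LCM-seq cells and in 5 of 15 against 6 of 19 DRaqL-Smart-seq2 cells, with differences of -2.83 and -0.01. Nppc, the ligand that holds the oocyte in meiotic arrest, had -1.501 and -0.65. Star, which carries cholesterol into mitochondria, was read in 0 of 17 and 0 of 20 LCM-seq cells. The counts of single cells are shallow for these genes, and a cell without a read may still express them.

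Genes of glycolysis were higher beside the oocyte. All 6 listed genes, Eno1, Pkm, Tpi1, Aldoa, Ldha and Pfkp, had the higher mean in neighboring cells in both protocols. Of all 22060 protein-coding genes, 6420 had. Among the 6, 5 were past 2-fold, against 6.5% of all kept genes. Of these 5, Pfkp passed the filter through the neighboring cells alone, so it had to differ. The list's median difference was 1.48 with LCM-seq and 1.63 with DRaqL-Smart-seq2, beside 0.21 and 0.17 over all kept genes. The sum of the 6 genes ran from 1860 to 6356 RPM with a median of 3203 in neighboring and from 529 to 4774 with a median of 1420 in non-neighboring LCM-seq cells. With DRaqL-Smart-seq2 it ran from 1156 to 3426 with a median of 2673, against 197 to 1558 with a median of 1036. The groups overlapped in both protocols. The list median was above 0 in each of the 8 pools, from 0.54 to 2.31, and pool 7, with 2 neighboring cells, had neighboring values of 1156 and 1209 RPM.

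By step, Eno1, the enolase, had medians of 610 against 227 RPM with LCM-seq and 583 against 197 with DRaqL-Smart-seq2, and differences of 1.58 and 1.81. Tpi1, the triose phosphate isomerase, had 521 against 231 and 352 against 189. Pkm, the pyruvate kinase, had 697 against 329 and 546 against 242. Ldha, which turns pyruvate into lactate, had 721 against 326 and 518 against 161, with differences of 1.197 and 2.03. Aldoa, the aldolase, was past 2-fold with DRaqL-Smart-seq2 alone, at 0.66 and 1.68. Pfkp, a platelet-type phosphofructokinase, was the least even, with differences of 4.79 and 1.38 and pool values from -0.75 to 8.03. The same-mouse oocytes held Ldha at a mean log2 of 1.52, which was 2.90 below non-neighboring cells, so the direction of Ldha was opposite to that of the oocyte. Pkm was 2.35 above them.

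**Figure D3:**
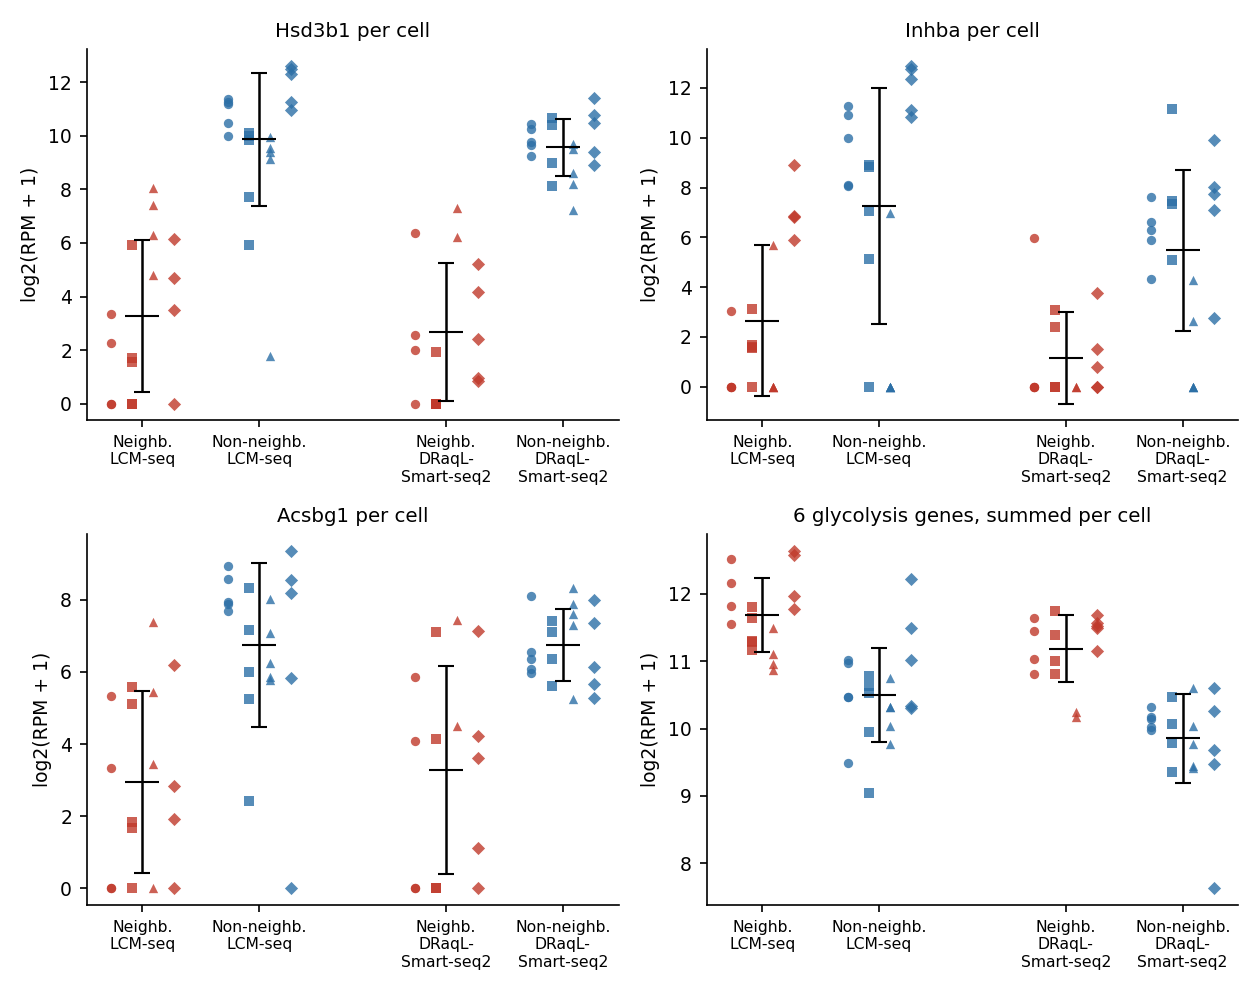
Levels of Hsd3b1, Inhba and Acsbg1 and the summed level of 6 glycolysis genes in each cell, on the y axes as log2(RPM + 1). Points are cells, marker shapes and columns are library pools, and bars are the mean and SD over cells. Hsd3b1 separates the positions in both protocols with 17 of 20 and 18 of 19 non-neighboring cells above every neighboring one, Inhba is spread over the pools, and the glycolysis genes are shifted up in neighboring cells.

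Other genes were higher in neighboring cells while oocytes held them at a level at least 2-fold below that of non-neighboring cells. The 15 with the largest combined difference among the 72 such genes were picked out after their values were seen. Kazald1, a secreted protein with an insulin-like growth factor binding domain, led with medians of 196 against 41.8 RPM and 275 against 27.2, differences of 2.53 and 3.92 and a value above 0 in all 8 pools. Slc47a2, a multidrug and toxin exporter, had medians of 60.2 against 4.15 and 152 against 24.5, with 3.55 and 2.79. Runx1, a transcription factor, had medians of 74.98 against 0 and 82.3 against 16.3, with 2.82 and 2.72. Heyl, a Notch target, had 2.97 and 1.79, and Plxna2, a semaphorin receptor, 3.00 and 2.08. Each of these 5 was higher in neighboring cells in all 8 pools, but the pools are parts of the same cells that picked them. Vegfa, the angiogenic growth factor, had 3.32 and 1.84 and was higher in 7 of 8 pools. Runx1, Heyl and Vegfa passed the filter through the neighboring cells alone, so they had to differ.

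Genes around the signals of GDF9 and BMP15 mostly differed by less than 2-fold, as most kept genes did. None of the 7 kept TGF-β family receptors was past 2-fold, where 6.5% of all kept genes were higher and 1.39% lower. With so few genes, this is near the share of all kept genes. Bmpr2, the type II receptor that GDF9 and BMP15 bind, had medians of 569 against 645 RPM and 540 against 581. Of 6 kept SMADs and targets 1, Smad7, the inhibitory SMAD, was past 2-fold, against 6.5% of all kept genes, with medians of 38.03 against 10.8 and 77.6 against 25.99 and differences of 2.38 and 1.99. Smad7 passed the filter through the neighboring cells alone, so it had to differ. The same-mouse oocytes had no read of it. Id3, a target of BMP signalling, differed by 1.197 and 0.92. Of 6 genes listed for receptors and transport in cumulus cells, Npr2, the receptor of the NPPC peptide, was past 2-fold with 1.57 and 1.48, Slc38a3, the amino acid transporter, had -0.33 and 0.76, and Amh, the anti-Müllerian hormone, had 1.96 and -0.23.

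Of 10 kept genes for junctions and projections, 2 were past 2-fold, against 6.5% of all kept genes. Gja4, the connexin of the oocyte side of the gap junction, had medians of 59.4 against 0 RPM and 1.41 against 0, differences of 4.21 and 1.94, and stood 8.34 higher in oocytes than in non-neighboring cells. Cdh1, E-cadherin, had 1.1604 and 1.58. Gja1, the connexin of the granulosa cells, had medians of 1862 against 2514 RPM and 1308 against 1772 RPM, with differences of -0.41 and -0.19. Of 4 kept Notch genes 1, Heyl, was past 2-fold, against the same 6.5%. Heyl passed the filter through the neighboring cells alone, so it had to differ.

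Identity genes of granulosa cells did not go 1 way. Of 17 kept, 8 had a combined difference above 0, against 62.4% of all kept genes, and 9 below, with a median of -0.15. In each direction 1 was past 2-fold, beside 6.5% of all kept genes higher and 1.39% lower in neighboring cells. Wt1, a transcription factor of early granulosa cells, was the higher one, with medians of 124 against 0 RPM and 157 against 63.3 and differences of 2.18 and 2.12, and Inhba the lower one. Inha ran from 1591 to 4970 RPM with a median of 2279 in neighboring and from 2791 to 12995 with a median of 4904 in non-neighboring LCM-seq cells. In DRaqL-Smart-seq2 it ran from 1308 to 3789 with a median of 2307, against 1172 to 5481 with a median of 3325, so the groups overlapped. Its differences were -1.06 and -0.45. Fshr, the receptor of follicle-stimulating hormone, had -1.17 and 0.00, Foxl2, the factor that keeps granulosa identity, -0.55 and -0.06, and Fst, the activin binder follistatin, 0.04 and 0.70.

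Of 30 kept cell cycle genes, 26 had a combined difference above 0, against 62.4% of all kept genes, and 5 were past 2-fold, against 6.5%. The pool medians of this list ran from -0.64 to 2.02 and were above 0 in 6 of 8 pools. The 5 genes past 2-fold were Ccnb1 and Aurka of mitosis, Mcm4 and Rrm2 of DNA synthesis and Ccne2 of S-phase entry. Their differences lay between 1.08 and 1.86, and oocytes held each of them at least 2.61 above non-neighboring cells. The median over all 30 kept genes was 3.08 above these cells, and the part of oocyte RNA in this list was not tested. Top2a, a topoisomerase of dividing cells, had 0.20 and -0.23. Of 10 kept genes of cholesterol synthesis, 8 were above 0 and 1, Nsdhl, was past 2-fold, again beside 6.5% of all kept genes, and the pool medians of this list ran from -0.80 to 1.85. Of 9 kept subunits of Polycomb repressive complex 2, 1, Mtf2, was past 2-fold, with 1.88 and 1.48, where 6.5% of all kept genes were. Of 4 kept immediate early and stress genes and of 12 kept genes that the study names for position, none was past 2-fold. Of all kept genes, 6.5% were higher and 1.39% lower.

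The study chose 35 and 97 genes as higher in neighboring and in non-neighboring cells on libraries of another chemistry, DRaqL-SC3-seq. The paper places this method on sections of the same ovary as the cells compared here. Granulosa cells with mixed profiles had been left out before these genes were chosen, and no such screen was made here. Of the 35, 29 were kept and 17 were past 2-fold higher in neighboring cells, against 6.5% of all kept genes. The 29 had a median of 2.67, which was 1.28 without the genes that are also among the 14 oocyte genes. Here again, a gene that passed the filter through the neighboring cells alone had to differ, and over all 35 the median was 1.78. In oocytes, 24 of the 35 were at least 8-fold higher than in non-neighboring cells. Among the 9 kept genes of the 35 that were not, 2, N4bp2 and Serpina3a, were past 2-fold, against 6.5% of all kept genes. Of the 97, 87 were kept. Atp1b2 and Hsd3b1 were past 2-fold higher in non-neighboring cells, where 1.39% of all kept genes were. Ntng1 and Ppp4c were past it in the other direction, where 6.5% of all kept genes were. The median over the list was 0.08, beside 0.20 over all kept genes.

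**Figure D4:**
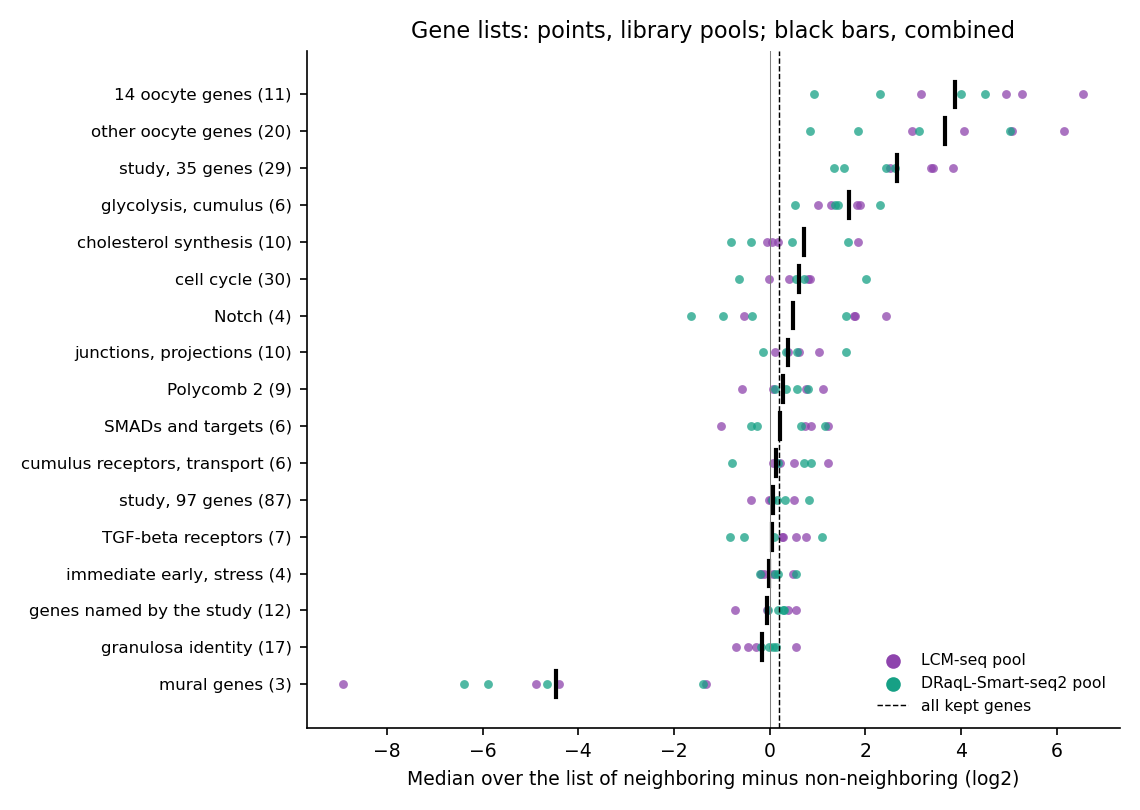
Median difference between neighboring and non-neighboring cells over the kept genes of each list, in log2 units on the x axis, with the number of kept genes in brackets. Points are the medians in each of the 8 library pools, black bars are the combined medians, and the dashed line is the median of all kept genes. The medians of both oocyte lists, the glycolysis list and the study's 35 genes are above 0 in all 8 pools, the median of the 3 kept mural genes is below 0 in all 8, and each of the other lists has pool medians on both sides of 0.

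Markers of other cells were low with some exceptions. The sum of 12 theca and stroma genes had medians of 138 RPM in neighboring and 112.3 in non-neighboring LCM-seq cells and of 128 and 181 with DRaqL-Smart-seq2. Its highest values were 469 and 6028, and 316 and 5147. The non-neighboring cells above the highest neighboring one were at 537 and 6028 RPM with LCM-seq. With DRaqL-Smart-seq2 they were at 560, 707, 863, 1250, 2305, 3709 and 5147 RPM. In both protocols, 0 of 12 genes were higher in neighboring cells and 8 were lower, where 6420 and 3733 of all 22060 protein-coding genes were. The part of theca and stroma RNA in the genes higher away from the oocyte was not tested. Endothelial genes had medians between 38.98 and 87.7 RPM in the 4 groups with Cldn5 at 0, and immune genes had medians of at most 3.71 RPM with C1qa and C1qc at 0. Blood genes had medians of at most 1.24 RPM, and their highest values were 129.7 in neighboring and 707 in non-neighboring LCM-seq cells and 68.5 and 70.9 with DRaqL-Smart-seq2.

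The same genes were set beside other experiments on laser-captured granulosa cells of the series, while formalin-fixed and dissociated granulosa cells were not used here. Of these experiments, the same-mouse one had served above as the reference for oocyte levels, and the study's lists came from the DRaqL-SC3-seq cells. In the same-mouse experiment, on a mouse in proestrus and with 35 cells of each position, 12 of 12 indexes marked both positions. There, 306 of the 402 genes (76.1%) had the higher mean in neighboring cells, against 50.6% of all kept genes, and 72 of the 86 (83.7%) the lower, against 49.3%. Of the 192 genes at least 8-fold higher in oocytes 167 were higher, beside 914 of all 1246 kept genes of that class, and of the 72 at least 2-fold lower in oocytes 55 were, beside 415 of 1121. The classes and these differences share the non-neighboring cells of that experiment. Among single genes, Acsbg1 differed by -3.93, Tdrd5 by -3.39, Hsd3b1 by -3.20, Lgals1 by -2.72 and Anxa3 by -2.50, while Inhba differed by -0.06 and Mro by -0.37. On the other side, Slc47a2 differed by 3.23, Kazald1 by 2.90, Runx1 by 2.72, Smad7 by 2.71 and Heyl by 2.29, while Vegfa differed by 0.02 and Perp, a desmosome protein, by 0.01. The oocyte genes differed less there, Bcl2l10 by 2.02, Ooep by 1.43 and Gdf9 by 0.94, and non-neighboring cells of that experiment held 0 to 18233 RPM of the 14 genes with a median of 124. The glycolysis list had a median of 1.28, the study's 35 genes 1.18 and its 97 genes -0.29, beside 0.0089 over all kept genes.

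With other chemistries, the share of the 402 genes that were higher in neighboring cells was 60.9% with SMART-Seq v4 (17 and 17 cells), 74.6% with DRaqL-SMART-Seq v4 (20 and 19 cells), 56.7% with DRaqL-SC3-seq (31 and 26 cells) and 73.6% in the 10-cell samples (7 and 7). All kept genes gave 44.3%, 45.7%, 38.1% and 49.3% in the same order. Of the 86 genes, 69.8%, 84.9%, 77.9% and 80.2% were lower in neighboring cells, where all kept genes gave 55.7%, 54.3%, 61.9% and 50.7%. The paper places SMART-Seq v4, DRaqL-SMART-Seq v4 and DRaqL-SC3-seq on sections of the same ovary as the cells compared here. Shares with these methods therefore do not come from another animal. For the 10-cell samples the paper does not name the ovary. Hsd3b1 had a median of 0 RPM in neighboring and 220 in non-neighboring cells with DRaqL-SMART-Seq v4 and of 0.238 and 734 in the 10-cell samples, while with SMART-Seq v4 the medians were 181 and 357 and the highest cells 1703 and 1579 RPM.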

How the data were processed

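The 71 libraries were made from single laser-captured granulosa cells, with ERCC spike-in RNA added at 1 dilution. The counts are those the authors deposited, as whole reads per gene. Per the submitters' notes and the study's methods, reads were split by in-line index, trimmed with fastp 0.20.0 and cutadapt 1.16, aligned to GRCm38 with HISAT2 2.1.0 and counted with HTSeq 0.10.0, where reads within 10 kb of annotated 3′ ends were added to the gene. Reads carry no molecular identifiers, so intervals cover counting error only.

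Groups came from the position in the labels. Of 45905 genes in the table, 22060 are protein-coding, and a median of 32.2% to 35.1% of the reads of each group fell on the rest and were left out. Counts were scaled to RPM, and a pseudocount of 1 RPM was added before log2. A difference is the mean of neighboring less that of non-neighboring cells, taken within each protocol and then averaged. Kept genes had a mean of at least 4 in 1 group, and genes past 2-fold differed by at least 1 the same way in both protocols. No test was run, because each group counts as 1 sample. Poisson intervals are 95% intervals. The steps were checked on simulated counts.

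The members, lists and rules were chosen with earlier results of these data known. Named were all genes of the lists, the 10 kept genes in each direction with the largest combined difference, and genes the study names. The tables also hold 116 columns of other samples, which were not used, and the exon and junction tables were not analysed here. Alternatives were other scalings (RPM over all genes, and edgeR 4.0.16 TMM factors), pseudocounts and filters, thinning to 100000 reads, differences within library pools and leaving out each pool. Coordinates are those of GENCODE vM21 on GRCm38, and sequences those of RefSeq on GRCm38.p6. Python 3.11.15, numpy 2.4.6, pandas 2.3.3, scipy 1.17.1, matplotlib 3.10.9 and R 4.3.3 were used.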

Additional observations from a re-analysis of the deposited data

Results flagged for a closer look

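Only 1 of the 3 groups with 4 to 10 samples stood out, and chance alone marks about 1 in 20 such groups. Among the 8 same-mouse oocytes, the reference for oocyte level, the sum of the 14 oocyte genes ran from 14665 to 29654 RPM. On the log2 scale, the gap between the lowest oocyte and the next was 0.645 of the whole range. The groups of 15 to 20 granulosa cells are too large for this rule.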

How the results depend on the processing

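Across the alternatives, 326 of the summary values and all 616 values of single genes stayed within the spread or count limit, 17 moved, and none reversed in a called direction. The spread was the SD over cells for single genes and per-cell measures, and the SD over the 8 pools for lists. It was wide, for instance 1.78 for the 14 oocyte genes and 2.52 for the mural genes. Staying within it is therefore a weak check. Counts of genes past 2-fold in both protocols are given here as percentages of the 6188 genes kept, where those reported come to 6.50% higher in neighboring and 1.39% higher in non-neighboring cells. A pseudocount of 0.1 gave 11.49% and 2.41%, with a median of 4.50 for the study's 35 genes, and a pseudocount of 10 gave 2.08% and 0.436%, with 1.41. Without a filter on low genes the counts came to 10.5% and 2.73% of the same number, and with a difference of at least 1.8 to 1.87% and 0.275%. The ratio of summed RPM gave 2.63% higher in neighboring cells, thinning gave 2.21% higher in non-neighboring cells, and leaving out genes at least 2-fold higher in oocytes, an alternative chosen after seeing the data, gave 2.17% higher in neighboring cells. The cause of these moves was not tested beyond what each setting changes by construction. The 35 genes had a median of 1.28 without the 14 oocyte genes. Under thinning, the medians of the granulosa identity and theca and stroma lists changed sign, to 0.26 and 0.48. Leaving out each library pool gave 6.19% to 7.90% and 1.29% to 2.07% of genes, a granulosa identity median of -0.28 to 0.29, where the highest came without pool 6, 14-gene sums differing by 5.22 to 5.84 with LCM-seq and 3.05 to 4.30 with DRaqL-Smart-seq2, and detected genes differing by 853 to 1296 and -30.6 to 605. No scaling moved the median of all kept genes by over 0.1. No paired analysis was possible because no test was run and the 2 positions share no replicate number in the labels, but each library pool held both positions, and differences taken within pools moved none of the summary values past these limits. Depth limits the shares of cells with a read for genes at a few RPM.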

Other observations

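Genes of pluripotent cells, several of which oocytes also express, were low but not even between positions. The sum of 8 of them (Nanog, Pou5f1, Sox2, Zfp42, Esrrb, Dppa5a, Tdgf1 and Utf1) ran from 0 to 234 RPM with a median of 69.0 in neighboring LCM-seq cells and from 0 to 95.9 with a median of 7.09 in non-neighboring ones. With DRaqL-Smart-seq2 it ran from 1.24 to 388 with a median of 39.4, against 0 to 181 with a median of 5.07. None of the 8 passed the filter on low levels. In both protocols 5 of 8 had the higher mean in neighboring cells, as had 6420 of the 22060 protein-coding genes.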
